A study of Mus musculus with 4 samples.

Results

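Glycolysis is carried out in developing sperm partly by enzymes that other tissues do not use. Here 10 genes were followed: the testis forms Ldhc, Pgk2, Gapdhs, Aldoart1, Pgam2 and Eno4, the somatic forms Ldha, Pgk1 and Gapdh, and Hk1, a single gene that gives both somatic and spermatogenic hexokinase transcripts. Of the testis forms, Pgam2 is also a mutase of muscle. The 10 genes were chosen by name, with earlier results of these data known. All 10 were among the 18419 genes of the table. Single testis cells of ICR mice had been measured in 4 libraries by droplet sequencing with a 3′ kit, which counts each captured transcript by a unique molecular identifier (UMI). A0 received vehicle alone, A10 received alginate oligosaccharides (AOS) at 10 mg/kg, B0 received busulfan, an alkylating drug that kills dividing germ cells, and BA10 received busulfan and then AOS at 10 mg/kg. Per the methods of the study, mice were 3 weeks old at a single busulfan dose of 40 mg/kg, AOS or vehicle was given by gavage from the next day, and the length of dosing differs between parts of the paper and is not given here. ICR is an outbred stock. Tubule cells of 6 mice were pooled into the 1 library of each group, so animals cannot be told apart and no difference between groups could be tested. Intervals below are exact 95% intervals that cover counting error only.

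The libraries held 3778 to 9682 cells and 25323535 to 150812974 UMIs. Cells started at 7687 UMIs (A0), 6716 (A10), 2985 (B0) and 9013 (BA10), so each library had its own lower limit, and 448 B0 cells reached that of BA10. Barcodes seen in more than 1 library numbered 374. Cells formed 26 clusters, named after marker genes. Names end in -like and use SPG for spermatogonia, SPC for spermatocytes and ST for spermatids. The marker check matched the testis label, with late SPC-like, round ST-like and elongating ST-like cells making up 33.2%, 32.0% and 28.3% of A0. In B0, 62.4% of cells were Leydig-like, 9.74% macrophage-like and 5.11% SPG-like, although tubule cells had been collected. BA10 held 51.4% late SPC-like and 11.0% round ST-like cells and 0.476% elongating ST-like cells. In these pooled sums, fewer cells of a type and less RNA per cell cannot be told apart.

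Glucose is phosphorylated by hexokinase, split by aldolase and oxidised by glyceraldehyde-3-phosphate dehydrogenase (GAPDH). Phosphoglycerate kinase (PGK) then makes ATP, phosphoglycerate mutase and enolase follow, and lactate dehydrogenase (LDH) interconverts pyruvate and lactate, the fuel that Sertoli cells supply to spermatocytes. In the male germ line the X chromosome, which carries Pgk1, is silenced at meiosis, and the autosomal retrogene Pgk2 provides the enzyme. Gapdhs encodes a GAPDH that is bound to the fibrous sheath of the sperm tail and is needed for sperm motility, and Ldhc encodes the LDH subunit of sperm.

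On the mm10 build with GENCODE M21 models, Ldha (chr7:46841475-46855627) and Ldhc (chr7:46861203-46878142) are neighbours on the plus strand, 5575 bases apart. Gapdhs (chr7:30729775-30743681) has 11 exons, Gapdh (chr6:125161715-125166467) has 7, and Pgk1 (chrX:106187100-106203699) has 11. Pgk2 (chr17:40207015-40208640) and Aldoart1 (chr4:72850583-72852634) consist of 1 exon each. Hk1 lies at chr10:62268855-62379908, Pgam2 at chr11:5801640-5803733 and Eno4 at chr19:58943425-58971421. When the last 300 bases of each member's transcripts were aligned to all GENCODE transcripts, 121 other genes matched Gapdh at 95% identity or more over at least 100 bases. Ldha matched 1 other gene, Gm5452, and the other 8 members matched 0. The Gapdh values are therefore uncertain where reads were shared with such copies, and so to a lesser extent are those of Ldha.

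For the 3 pairs of which both forms are members, the 250 bases upstream of the transcript start follow (mm10, GRCm38.p6, from RefSeq), written 5′ to 3′ along the gene, because forms of a pair that differ across the germ line can so be set side by side. The windows are chr7:46861013-46861262 (plus strand) for Ldhc, chr7:46845554-46845803 (plus) for Ldha, chr17:40208610-40208859 (minus) for Pgk2, chrX:106186850-106187099 (plus) for Pgk1, chr7:30743682-30743931 (minus) for Gapdhs and chr6:125165774-125166023 (minus) for Gapdh. RefSeq windows were found for 9 of the 10 members, not for Aldoart1. Capitals mark the core of the cAMP response element, TGACG or its reverse CGTCA, and the GC box, GGGCGG or CCGCCC, both searched on both strands.
Ldhc: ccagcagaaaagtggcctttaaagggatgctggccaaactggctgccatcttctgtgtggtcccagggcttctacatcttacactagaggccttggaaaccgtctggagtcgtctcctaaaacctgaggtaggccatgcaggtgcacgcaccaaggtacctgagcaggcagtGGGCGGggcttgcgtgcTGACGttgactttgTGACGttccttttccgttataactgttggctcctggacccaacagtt
Ldha: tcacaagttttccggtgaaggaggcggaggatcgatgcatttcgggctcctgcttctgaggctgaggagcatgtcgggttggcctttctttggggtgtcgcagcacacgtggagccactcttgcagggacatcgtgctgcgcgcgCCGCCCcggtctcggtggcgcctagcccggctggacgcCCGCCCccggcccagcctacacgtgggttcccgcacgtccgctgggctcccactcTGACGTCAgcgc
Pgk2: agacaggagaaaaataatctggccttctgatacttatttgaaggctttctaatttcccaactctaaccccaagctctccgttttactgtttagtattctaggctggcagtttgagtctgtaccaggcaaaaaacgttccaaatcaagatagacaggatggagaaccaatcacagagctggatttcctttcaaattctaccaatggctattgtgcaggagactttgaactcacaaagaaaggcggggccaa
Pgk1: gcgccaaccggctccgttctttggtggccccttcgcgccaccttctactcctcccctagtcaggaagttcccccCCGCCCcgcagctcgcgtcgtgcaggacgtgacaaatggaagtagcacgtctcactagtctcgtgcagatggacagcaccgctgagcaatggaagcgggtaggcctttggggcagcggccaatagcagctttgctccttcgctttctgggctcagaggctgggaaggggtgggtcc
Gapdhs: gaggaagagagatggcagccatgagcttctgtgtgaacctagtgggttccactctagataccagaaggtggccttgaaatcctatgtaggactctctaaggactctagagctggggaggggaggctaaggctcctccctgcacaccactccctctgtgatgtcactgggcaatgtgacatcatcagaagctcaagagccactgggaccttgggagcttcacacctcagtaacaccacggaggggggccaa
Gapdh: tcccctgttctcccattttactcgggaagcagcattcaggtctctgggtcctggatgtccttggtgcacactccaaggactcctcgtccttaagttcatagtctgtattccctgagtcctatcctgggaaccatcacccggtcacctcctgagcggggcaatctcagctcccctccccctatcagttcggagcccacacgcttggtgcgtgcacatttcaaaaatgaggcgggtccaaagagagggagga

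The Ldhc window held 2 such cores, at 61 and 47 bases before the start, and 1 GC box. The Ldha window held a full element, TGACGTCA, at 12 bases before the start, which counts as 2 overlapping cores, and 2 GC boxes. The Pgk1 window held 1 GC box, and the windows of Pgk2, Gapdhs and Gapdh held neither motif. Over all 32851 promoter windows of that length, 17.8% held the core, 1.55% the full element and 32.7% the GC box. Ldhc, Ldha and Gapdhs each had a second RefSeq window. That of Ldhc held neither motif and that of Ldha held 1 core, no full element and no GC box. GENCODE models of Ldha, Ldhc, Pgk2 and Gapdh begin upstream of the starts used here. The windows of Ldha and Gapdh therefore lie wholly inside the gene spans, and those of Ldhc and Pgk2 partly.

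**Figure D1:**
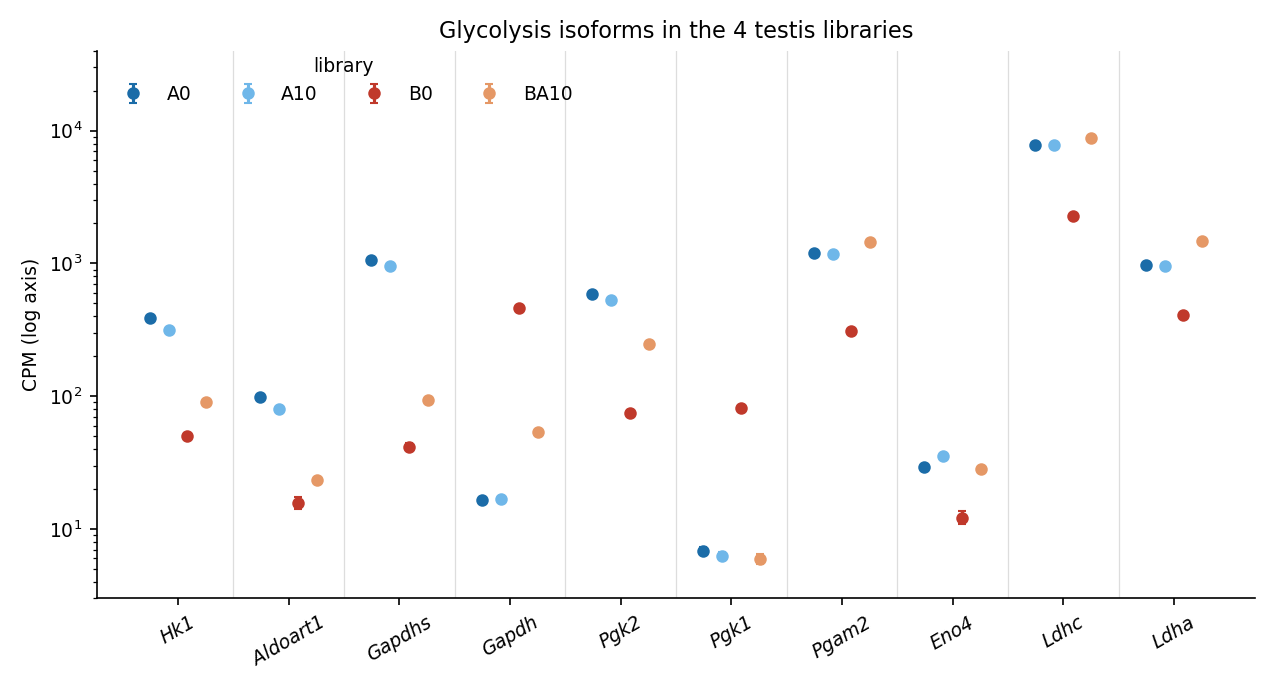
Counts per 1000000 UMIs (CPM) of the 10 members (log axis) in each of the 4 libraries, with exact Poisson intervals that are mostly smaller than the points. B0 lies lowest for the testis forms, Hk1 and Ldha, and highest for Gapdh and Pgk1.

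The members separated into those that were high in A0 and low in B0 and those that were the reverse. Levels are UMIs summed over a library and scaled to counts per 1000000 UMIs (CPM), and they are compared between libraries. Where genes are set against each other below, by shares or UMI numbers, differences in capture between genes were not tested. Hk1, which starts the pathway, was at 390.8 CPM (A0), 317.0 (A10), 50.31 (B0) and 90.35 (BA10). Aldoart1, a retrogene aldolase of the sperm tail, was at 99.18, 80.53, 15.76 and 23.23 in the same order. In both, A0 and A10 were higher than either busulfan library.

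Gapdhs was at 1061 CPM (A0), 962.5 (A10), 41.82 (B0) and 92.97 (BA10). Gapdh was at 16.64, 16.87, 462.8 and 54.02. The pair thus ran in opposite directions, with B0 lowest for Gapdhs and highest for Gapdh.

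Pgk2 was at 591.6 CPM (A0), 526.5 (A10), 75.07 (B0) and 247.8 (BA10). Pgk1 was at 6.869 (interval 6.46 to 7.30), 6.242 (5.84 to 6.66), 80.91 (77.5 to 84.5) and 5.980 (5.49 to 6.50), so that B0 stood apart. The intervals of A0, A10 and BA10 overlapped, but those of the ratios of A10 and BA10 to A0, given below, did not include 0. Pgam2, the mutase of muscle and testis, was at 1196, 1186, 308.0 and 1440. Eno4, an enolase of the sperm tail, was at 29.50, 35.27, 12.20 and 28.10, with overlapping intervals in A0 and BA10. Of these, only Pgam2 was higher in BA10 than in A0.

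Ldhc was at 7797 CPM (A0), 7776 (A10), 2285 (B0) and 8851 (BA10). Ldha was at 981.0, 959.8, 409.3 and 1465. Ldha, the somatic LDH form among the members, therefore followed the testis form across the libraries, unlike Gapdh and Pgk1. Ldhb, an LDH gene that is not a member, ran the other way, at 8.182, 9.477, 576.4 and 49.04 CPM.

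The comparison of A10 with A0 asks what AOS changed without busulfan. Log2 ratios were formed with 1 CPM added, and a gene was counted past 1 on that scale among genes at 10 CPM or more in either library. Of the members, 9 passed that filter (not Pgk1) and 0 were past 1, where 0.0446% of 6724 genes were past 1 upward and 0.0595% downward. The member ratios ran from -0.30 for Hk1 (interval -0.32 to -0.28) and -0.30 for Aldoart1 (-0.33 to -0.26) to 0.25 for Eno4 (0.19 to 0.31). Pgk1, below the filter, was at -0.12 (-0.2331 to -0.0069). Within late SPC-like, round ST-like and elongating ST-like cells, Hk1 was at -0.22, -0.27 and -0.27, Aldoart1 at -0.24, -0.21 and -0.31, and Eno4 at 0.22, 0.25 and 0.20. Ldhc (-0.0039) and Pgam2 (-0.01) were nearest to 0, and both took the other sign when ratios were centred on the median gene (0.0242 and 0.0155), as Ldhc did among cells at the common UMI limit (0.0040). Of the other listed pathway genes, 0 of 24 past the filter were past 1.

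The comparison of B0 with A0 asks what busulfan alone changed. Testis forms were lower and 2 of 3 somatic forms higher. All 10 members passed the filter, and 8 were past 1 downward, against 22.7% of 10056 genes, and 2 upward, against 42.8%. Gapdhs was 24.8-fold lower, with a log2 ratio of -4.63 (interval -4.72 to -4.55). Pgk2 was at -2.96 (-3.03 to -2.90), Hk1 at -2.93 (-3.01 to -2.85) and Aldoart1 at -2.58 (-2.72 to -2.44). Pgam2 (-1.95), Ldhc (-1.77), Ldha (-1.26) and Eno4 (-1.21) were lower by less. Gapdh was at 4.72 (4.66 to 4.78) and Pgk1 at 3.38 (3.28 to 3.48). Germ-scored clusters scored highest for a germ cell class and were not led by blood, stroma or steroid genes. The latter rule, set after the clusters were seen, left out an unnamed cluster with 504 B0 cells. With 1000 variable genes, a cluster with 496 B0 cells, also led by Cst12 and Cst9, was germ-scored. In germ-scored clusters only, Pgk1 was at 1.52, Gapdh at 3.85, Aldoart1 at -4.04, Pgk2 at -4.02, Hk1 at -3.58 and Gapdhs at -5.95, while Eno4 (-0.97) and Ldha (-0.88) were no longer past 1. Pgam2 and Ldhc were at -1.86 and -1.44. The 460 germ-scored B0 cells were mainly SPG-like (238) and SPC-like with no stage named (203), whereas A0 held 0 SPG-like cells. A difference in stage and a difference at a stage thus cannot be told apart in these ratios. Over all cells, the median of the 6 testis forms was -2.27 and that of the 3 somatic forms 3.38, while the median of all genes was 0.51. Relative to the median of all genes, the testis forms and Ldha lie further down and Gapdh and Pgk1 less far up.

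Among cells at or above 9013 UMIs, the highest of the lower limits, these differences were smaller. The B0 over A0 ratio was then -2.99 for Gapdhs, -1.42 for Pgk2, -0.25 for Ldhc, -0.09 for Ldha, 2.22 for Gapdh and 0.78 for Pgk1, and that of Eno4 changed sign to 0.22. Of the 448 B0 cells at that limit, 331 (73.9%) were in a cluster left unnamed, which carried Ldhc at 6939 CPM in B0 while haemoglobin (Hba-a1) and Sertoli genes led it. The part of free RNA or mixed droplets in these values was not tested.

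The comparison of BA10 with B0 asks what AOS changed after busulfan. It shares B0 with the previous comparison, so the directions of both are not independent. Pgam2 was at 2.22 (interval 2.19 to 2.25), Ldhc at 1.95 (1.94 to 1.97), Ldha at 1.84 (1.81 to 1.87) and Pgk2 at 1.71 (1.64 to 1.78), all higher in BA10. Gapdh (-3.08, -3.12 to -3.03) and Pgk1 (-3.55, -3.67 to -3.43) were lower. All 10 again passed the filter. Of them, 6 were past 1 upward, against 18.8% of 9720 genes, and 2 downward, against 39.5%. The medians were 1.43 for testis forms and -3.08 for somatic forms, beside -0.38 for all genes.

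Gapdhs (1.13), Eno4 (1.14), Hk1 (0.83) and Aldoart1 (0.53) were also higher in BA10 over all cells, but at the common UMI limit their ratios were -0.45, -0.30, -0.34 and -0.99, the opposite sign. In germ-scored clusters only they were 2.47, 0.91, 1.45 and 1.98, and with means over cells 2.44, 2.09, 1.58 and 1.87, so that Hk1 and Aldoart1 were past 1 under both and Eno4 was not past 1 in germ-scored clusters. Of the 460 germ-scored cells of B0, 238 were SPG-like and 203 SPC-like with no stage named, whereas the 3058 of BA10 were mainly late SPC-like (1941), SPC-like with no stage named (543) and round ST-like (417). At the limit Pgam2 was at 0.73, Ldha at 0.64, Ldhc at 0.42 and Pgk2 at 0.20, still higher in BA10, and Gapdh and Pgk1 were at -0.54 and -0.96. The median of the testis forms was then -0.0482.

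The comparison of BA10 with A0, which shares a library with each of the others, asks how far the treated testis was from the control. Again 9 members passed the filter, without Pgk1. Past 1 were 1 upward, Gapdh at 1.64 (interval 1.57 to 1.71), against 15.2% of 7549 genes. Downward there were 4, against 20.2%: Gapdhs at -3.50 (-3.53 to -3.47), Hk1 at -2.10 (-2.13 to -2.07), Aldoart1 at -2.05 (-2.11 to -1.98) and Pgk2 at -1.25 (-1.27 to -1.23). Ldha was at 0.58 (0.57 to 0.59), Pgk1 at -0.17 (-0.30 to -0.04) and Eno4 at -0.07 (-0.14 to 0.0005). Pgk1 was at 0.1687 when means over cells were used. Pgam2 (0.27) and Ldhc (0.18) were slightly higher, but were at -0.0721 and -0.1566 when centred on the median gene, which was at 0.34.

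**Figure D2:**
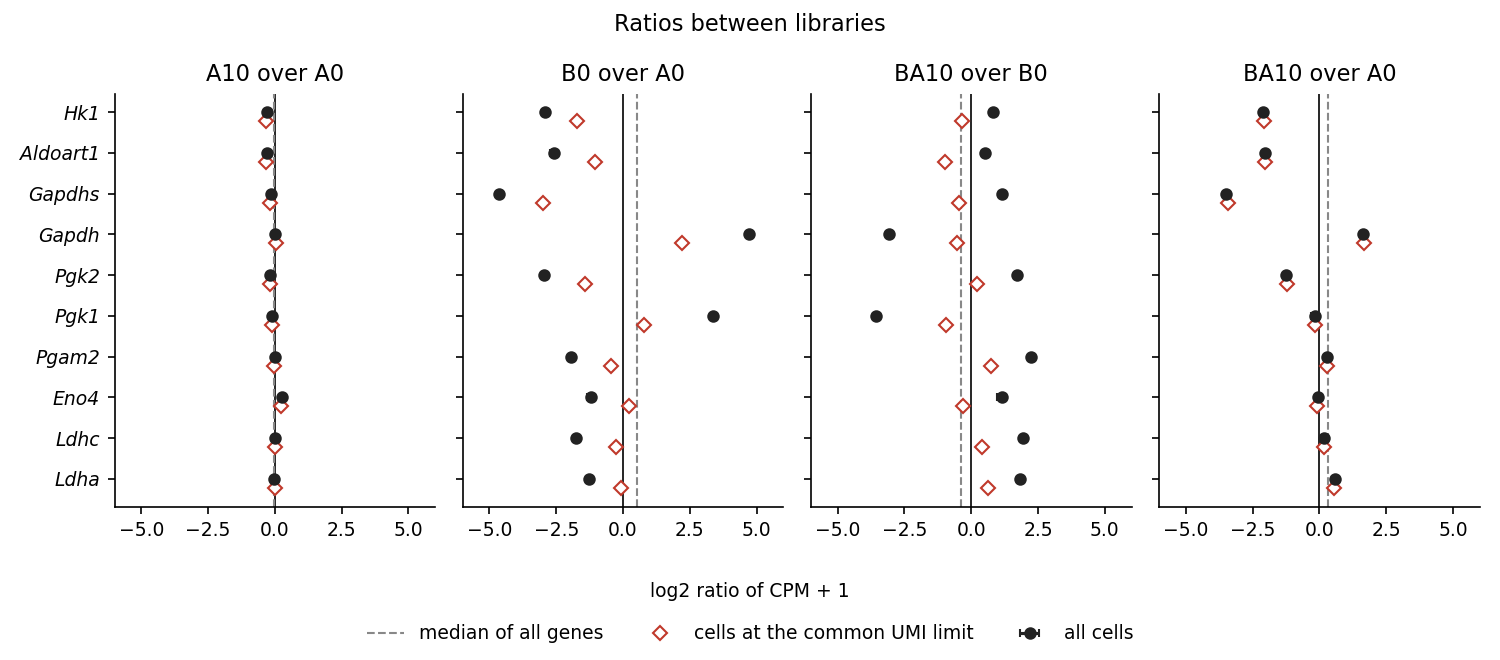
Log2 ratios of CPM + 1 for each member in the 4 comparisons, with all cells as filled points (intervals mostly within the points) and cells of at least 9013 UMIs as open diamonds. The dashed line is the median of all genes at 10 CPM or more. For BA10 over B0, the diamonds of Hk1, Aldoart1, Gapdhs and Eno4 lie left of 0 and their filled points right of it.

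Clusters were built with the members left out, and the members' levels in them are given as a description. The testis forms did not peak in the same clusters. SPG-like cells, found in B0 (238 cells), held Ldhc at 153.5 CPM, Ldha at 50.52, Pgam2 at 30.71, Pgk2 at 4.952 and Gapdhs at 3.962. Their Gapdh was at 540.8 and their Pgk1 at 32.69. Another cluster, left unnamed, shared leading genes with them, such as Stra8 and Hells, and held 122 A0, 106 A10 and 120 BA10 cells. Its Gapdhs was at 1479, 1056 and 95.86 CPM and its Prm1, a protamine gene, at 18100, 16710 and 516.7. The SPG-like levels are thus those of B0 alone, and the part of free RNA in that cluster was not tested. Leydig-like cells of B0, which should lack Ldhc, held it at 134.9 (interval 128.5 to 141.5, against 130.3 to 179.7 in SPG-like cells). An Ldhc UMI was seen in 37.6% of Leydig-like cells (35.8 to 39.4) and 45.4% of SPG-like cells (38.9 to 51.9), at median depths of 4047 and 4081 UMIs, so the levels were not told apart by their intervals.

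The next step was an SPC-like cluster led by Tex101, Gml and Piwil1, a stage left unnamed, with 203 B0 and 543 BA10 cells. There Ldhc was at 3959 CPM in B0 and 7673 in BA10, Ldha at 760.7 and 1616, and Pgam2 at 436.9 and 1158. Pgk2 was still at 19.43 and 46.25, Gapdhs at 2.355 and 12.77, and Aldoart1 at 0.5888 and 2.029. In this cluster the log2 ratios of BA10 over B0 were 0.95 for Ldhc, 1.09 for Ldha, 1.40 for Pgam2, 1.21 for Pgk2 and 2.04 for Gapdhs. Gapdh was at -0.88 and Pgk1 at -1.76, while Hk1 (-0.03, interval -0.50 to 0.46) and Eno4 (0.12) had intervals that included 0. At a finer cluster setting (resolution 2), an early SPC-like cluster with Tex101 among its leading genes held 166 B0 and 39 BA10 cells. A late SPC-like cluster also led by Tex101 held 38 and 498. A difference in stage and a difference at a stage thus cannot be told apart in these ratios. Median UMIs of the stage-unnamed cells were 5092 in B0 and 19831 in BA10, and Insl3, the Leydig hormone gene, was at 164.3 and 41.51 CPM. Their part in the result was not tested. A cluster of 412 A0 and 383 A10 cells, left unnamed, was also led by Tex101 and Gml. Its Gapdhs was at 490.0 and 426.2 CPM and its Prm1 at 5602 and 6090. Per 100 Prm1 UMIs this cluster held 8.75 Gapdhs UMIs in A0 and 7.0 in A10. Elongating ST-like clusters held 5.64 to 8.77 in A0 and 3.73 to 5.79 in A10. The part of free RNA in the Gapdhs level of this cluster was not tested. Low Gapdhs in a cluster led by Tex101 was thus seen in the busulfan libraries only, and whether Gapdhs timing differed was not tested.

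Late SPC-like cells held the most Ldhc, at 9671 CPM in A0, 9578 in A10 and 9650 in BA10. Their Ldha was at 1337, 1302 and 1560, and their Pgam2 at 1309, 1274 and 1571. Pgk2 was at 313.5, 281.7 and 250.9. Pgk1 was lowest of all here, at 1.341, 2.002 and 2.435, and in 1 late SPC-like cluster of A0 with 1429 cells it gave 14 UMIs, or 0.7595 CPM. BA10 late SPC-like cells lay in clusters of their own (1404 and 535 cells), apart from those of A0 and A10.

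Round ST-like cells had more Pgk2 (624.5 in A0, 573.3 in A10, 470.1 in BA10), more Hk1 (453.3, 376.3 and 265.0) and more Aldoart1 (150.4, 129.6 and 111.9). Pgk1 was at 10.15, 9.751 and 11.69, above its late SPC-like level in each of these 3 libraries. Ldhc was at 7726, 7750 and 7600. Of the 417 BA10 cells of this class, 403 were in a cluster of their own.

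In elongating ST-like cells, Ldhc and Ldha levels were lower than in round ST-like cells and those of Gapdhs, Pgk2 and Hk1 higher. Ldhc was at 5510 CPM in A0 and 5127 in A10, Ldha at 517.5 and 475.4, and Eno4 at 18.23 and 21.15. Gapdhs was at 2362 and 2141, Pgk2 at 1016 and 922.0, and Hk1 at 689.1 and 571.7. Aldoart1, at 130.4 and 104.8, was below its round ST-like level, as was Eno4. In the cluster with the most Prm1, the protamine gene of condensing sperm chromatin, A0 cells (847) held Gapdhs at 3639, Pgk2 at 1369 and Hk1 at 1003, with Ldhc at 2375 and Ldha at 178.6. Elongating ST-like cells numbered 18 in BA10, too few for a value, and 0 of 4659 in B0, which allows a share of up to 0.0644% (3 cells of the total). A cluster of 1231 cells named elongating ST-like scored almost as high for round ST-like (0.412 and 0.372, as mean shares of the highest cluster's marker levels).

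**Figure D3:**
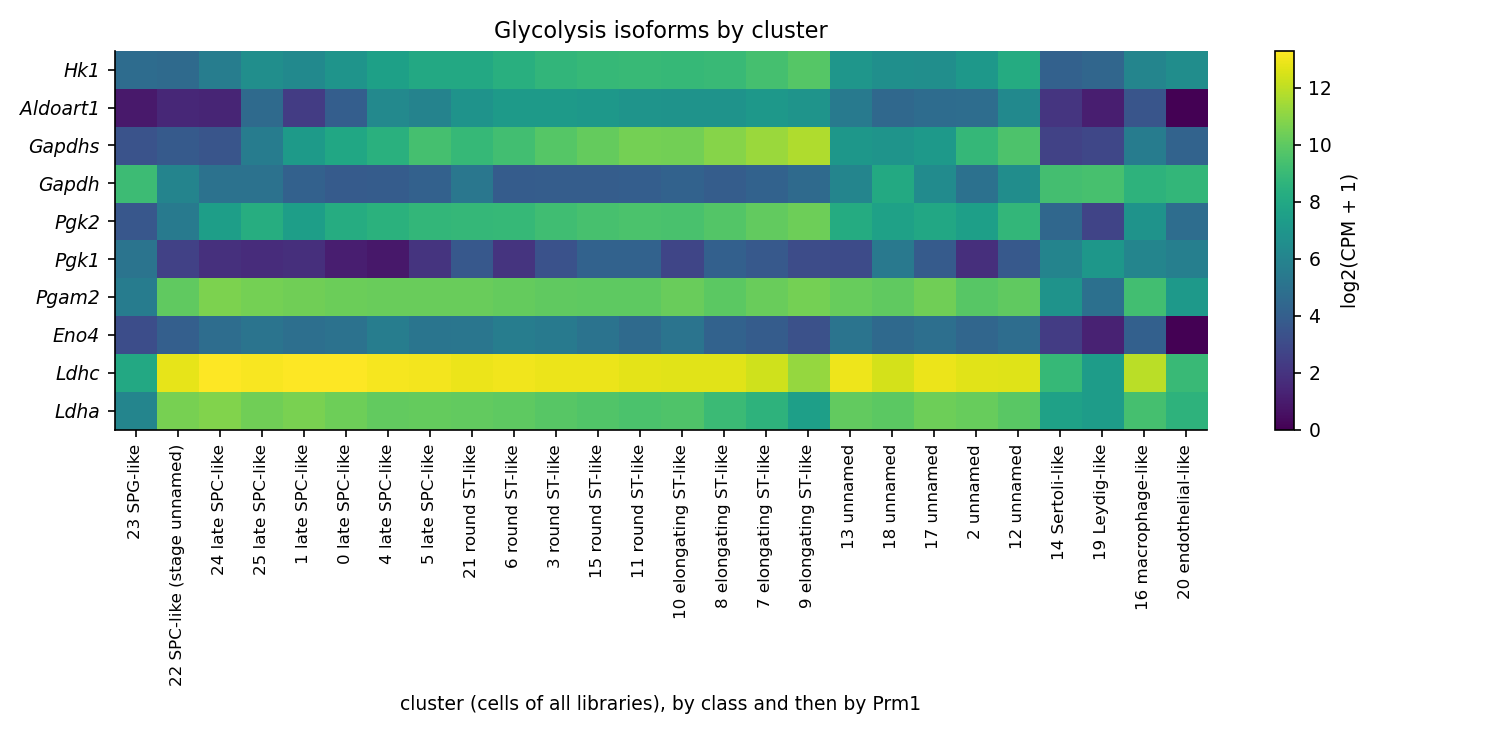
Log2 of CPM + 1 for each member (rows) in the 26 clusters (columns, cells of all libraries), ordered by class and within a class by Prm1. Ldhc, Ldha and Pgam2 are already high in the first SPC-like cluster, while Gapdhs, Pgk2 and Hk1 are highest in the last of the elongating ST-like clusters.

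Within a class, BA10 and A0 could be compared in late SPC-like and round ST-like cells. Ldhc was nearly level, with log2 ratios of -0.0032 and -0.02. Gapdhs was at -3.19 and -0.99, Aldoart1 at -1.48 and -0.42, Hk1 at -1.07 and -0.77, and Pgk2 at -0.32 and -0.41, all lower in BA10. Gapdh was higher, at 1.07 and 1.36, and Pgam2 at 0.26 and 0.20. Different clusters held these classes in both libraries, so a difference in stage and a difference at a stage cannot be told apart. Macrophage-like cells of BA10, which should lack Ldhc, held it near its whole-library level, as given below. The part of free RNA in the Ldhc levels of these classes was not tested.

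Between BA10 and A0, Prm1 was lower along with Gapdhs in these classes. Between A10 and A0, the elongating ST-like clusters had more Prm1 and less Gapdhs in A10. In the cluster with the most Prm1, A0 and A10 held Gapdhs at 3639 and 3123 CPM and Prm1 at 60840 and 82150. Late SPC-like cells carried Prm1 at 1793 CPM in A0, 2719 in A10 and 37.26 in BA10, and round ST-like cells at 5469, 7167 and 220.2. In A0, Gapdhs UMIs per 100 Prm1 UMIs were 5.64 to 8.77 in the 4 elongating ST-like clusters, 14.4 to 18.5 in the late SPC-like ones and 10.7 to 37.0 in the round ST-like ones. In A10 they were lower, at 3.73 to 5.79, 9.34 to 12.7 and 7.34 to 24.3 in the same order. The unnamed cluster led by Tex101 was at 8.75 in A0 and 7.0 in A10. The unnamed cluster with Stra8 and Hells was at 8.17 and 6.32. In the round ST-like cluster of BA10, Gapdhs UMIs per 100 Prm1 UMIs were 471, with Gapdhs at 482.5 and Prm1 at 102.4. The part of free RNA in the Gapdhs level of late SPC-like cells was not tested. Ratios above those of A0 were also found in a cluster left unnamed (442 in B0 and 203 in BA10) in both late SPC-like clusters of BA10 (41.9 and 122) and in its SPC-like cluster of unnamed stage (41.0), and Leydig-like cells of B0 were at 131 on 63 Gapdhs UMIs.

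**Figure D4:**
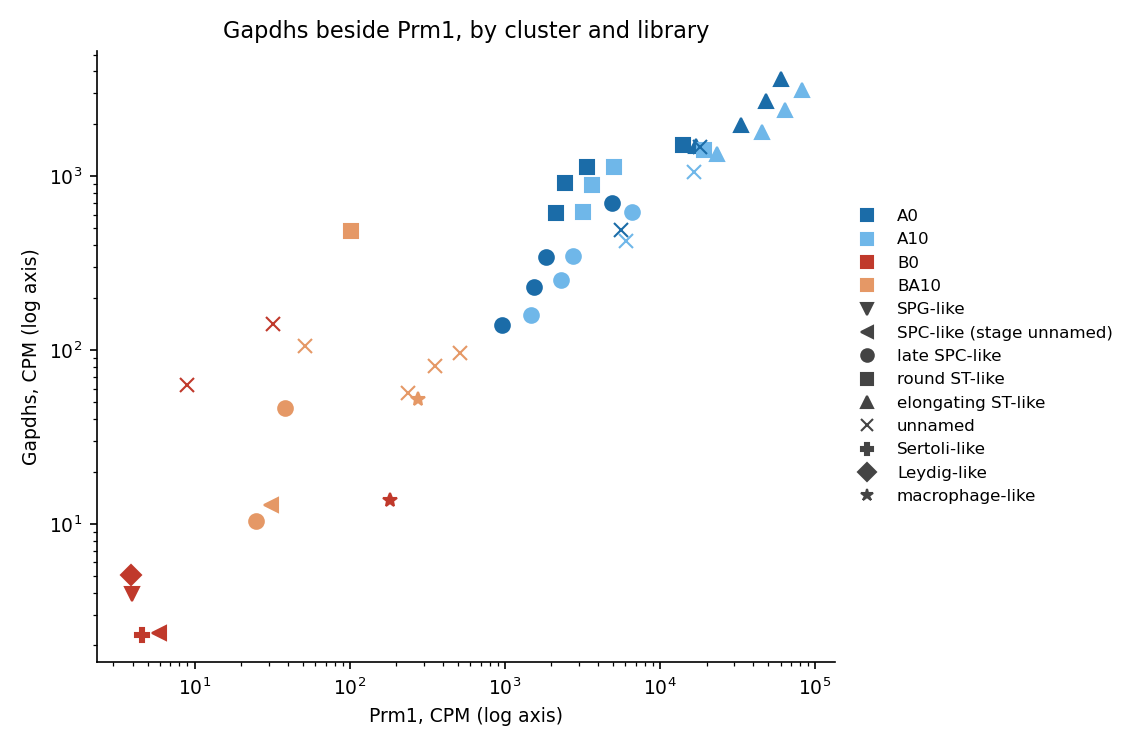
Gapdhs against Prm1, both in CPM on log axes, for each cluster and library with at least 50 cells (colour for the library, marker for the class). A0 and A10 points run along a band up to 3639 and 3123 for Gapdhs, and the round ST-like cluster of BA10 (482.5 for Gapdhs and 102.4 for Prm1) and an unnamed cluster (141.0 and 31.93 in B0, 104.9 and 51.56 in BA10) lie to the left of it.

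The share of the testis form among the UMIs of a pair does not depend on the scaling of a library. It counts 1 UMI as 1 transcript, without regard to length. Over whole libraries, Gapdhs made up 98.5% of Gapdhs and Gapdh (A0), 98.3% (A10), 8.29% (B0) and 63.3% (BA10). Pgk2 made up 98.9%, 98.8%, 48.1% and 97.6% of the PGK pair, and Pgam2 99.3%, 99.2%, 50.9% and 98.2% of its pair with Pgam1. Over all cells, BA10 was thus near A0 for PGK and the mutase but not for GAPDH.

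The shares of B0 moved at the common UMI limit. Most of its 448 cells there were in the unnamed cluster led by haemoglobin and Sertoli genes. Over these 448 cells the share was 61.7% for Gapdhs (interval 59.1 to 64.2), 94.5% for Pgk2 and 94.9% for Pgam2. BA10, of which every cell is at the limit, was at 63.3%, 97.6% and 98.2%, so that little of the difference between B0 and BA10 was left there. In germ-scored clusters of B0 the shares were 6.09%, 62.5% and 70.8%.

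Aldoart1 made up 46.3%, 42.9%, 2.83% and 21.5% of its pair with Aldoa, and Eno4 15.7%, 16.6%, 5.80% and 11.6% of its pair with Eno1. Among B0 cells at the common UMI limit these shares were 25.8% and 12.9%. Aldoa and Eno1 thus had more UMIs than Aldoart1 and Eno4 in every library. Aldoart2, another aldolase retrogene of the testis and not counted in the pair, had 44767 UMIs (A0), 36553 (A10), 890 (B0) and 6014 (BA10), against 17376, 15385, 13697 and 7728 for Aldoa, so both retrogenes together held most of the UMIs of these 3 aldolase genes in A0, A10 and BA10. Ldhc made up 88.8%, 89.0%, 84.8% and 85.8% of the LDH pair, the narrowest range of the 6 pairs. Ldhb and Ldhal6b were not counted in that pair. In B0, Ldhb had 14597 UMIs and Ldha 10364, and in A0, Ldhal6b had 159156 and Ldha 147945.

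By class, the Pgk2 share was 13.2% in SPG-like cells of B0, 56.9% and 92.7% in the stage-unnamed SPC-like cells of B0 and BA10, and 99.0% to 99.6% in late SPC-like cells. The Gapdhs share ran behind it. It was 0.727% in SPG-like cells, 2.19% and 18.4% in the stage-unnamed SPC-like cells, 48.8% in late SPC-like cells of BA10 and 92.9% in round ST-like cells of BA10. In A0 it was 95.2% already in late SPC-like cells, beside the Prm1 level given above. At the finer cluster setting given above, most such SPC-like cells of B0 and of BA10 fell into clusters of different stages. Their shares are therefore not those of 1 stage. Macrophage-like cells, which should lack Ldhc, held it at 775.6 CPM in B0 and 8455 in BA10, with Gapdhs shares of 2.32% and 32.2%. In BA10, Ldhc in these somatic-like cells was thus near its level over the whole library (8851). Gapdhs in them was at 52.25 CPM, against 92.97 over the whole library. The part of such germ transcripts in the results was not tested.

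**Figure D5:**
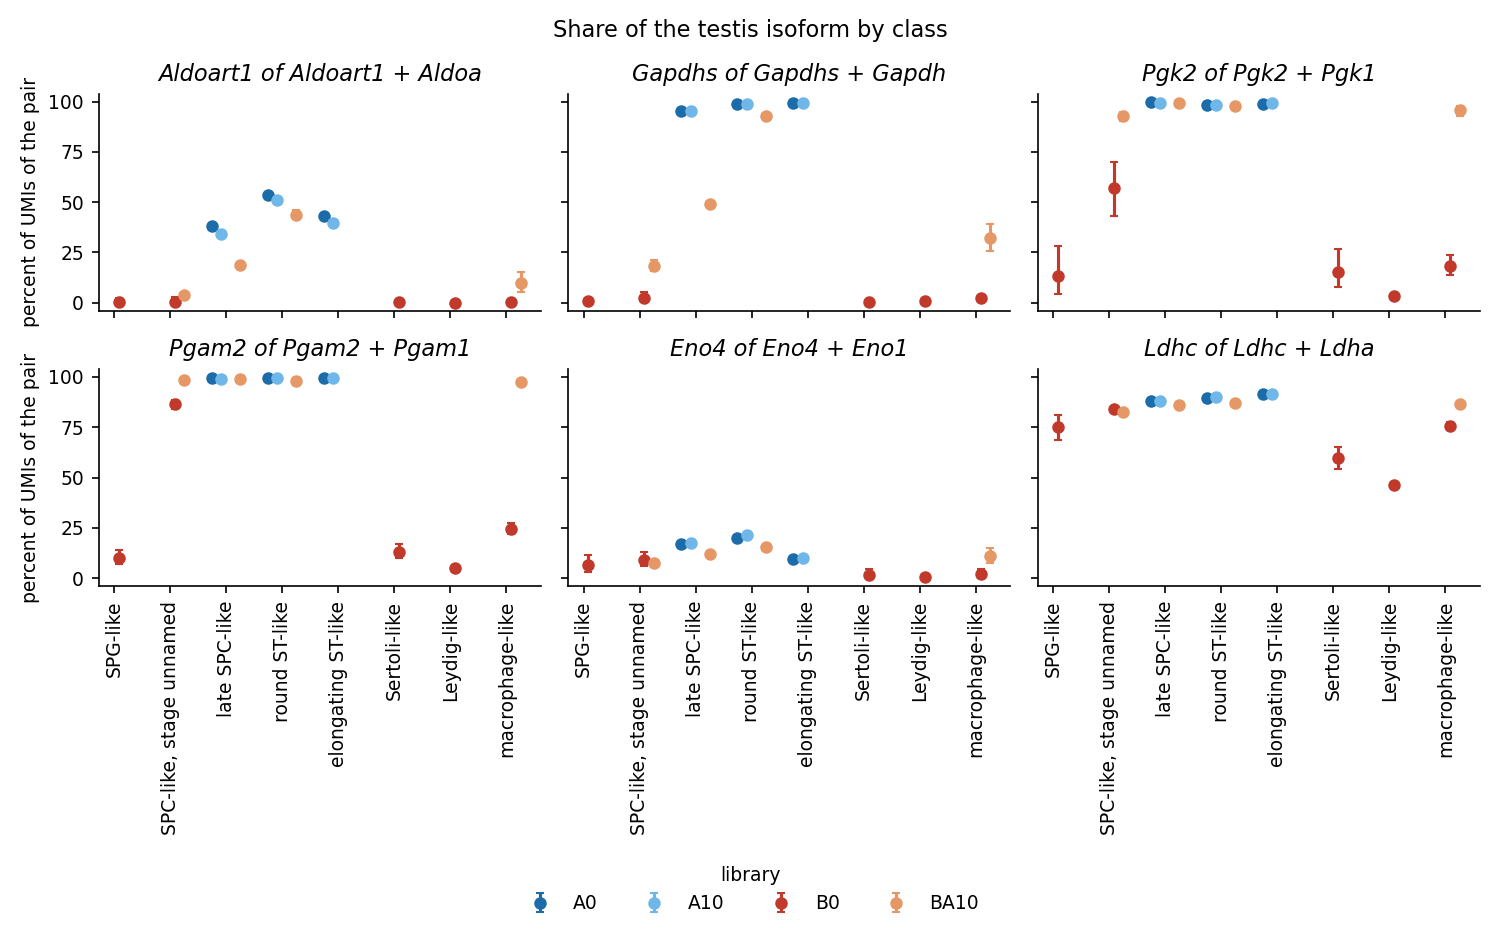
Percent of a pair's UMIs that came from the testis form, by class and library (at least 50 cells), with exact binomial intervals. The Pgk2 and Pgam2 panels are near the top from late SPC-like cells on in A0, A10 and BA10, whereas Gapdhs in BA10 stands at 48.8% in late SPC-like and 92.9% in round ST-like cells.

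Leydig-like cells of B0 held Gapdh at 691.6 CPM and Pgk1 at 132.1, each above its level over the whole B0 library. They held Ldha at 157.2, Ldhc at 134.9, Gapdhs at 5.081, Pgk2 at 4.597 and Aldoart1 at 0.9678, each below its whole-library level. Sertoli-like cells held Gapdh at 650.9, above the level of the whole library, and Pgk1 at 63.47, below it. Insl3 in Leydig-like cells was at 12020.

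The other genes of the pathway, from a list of 42 of which 41 were in the table, lay on both sides of 0. For B0 over A0, 14 of the 34 past the filter were past 1 upward, where 42.8% of all genes were, and 10 downward, where 22.7% were, so the counts were near those over all genes. Among glucose transporters, Slc2a1 was at 3.36, Slc2a3, a high-affinity glucose transporter, at -1.02 and the fructose transporter Slc2a5 at -1.81. In the preparatory phase Hk2 was at 4.66, Aldoc at 6.02 and Aldoa at 2.22, and the retrogene Aldoart2 at -3.04. In the payoff phase Pgam1 was at 5.05 and Pkm, pyruvate kinase, at 1.76, and Bpgm at -1.71.

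Of the 11 genes of lactate and pyruvate use, Ldhb (5.97), Slc16a1 (3.66), Slc16a3 (3.50), Mpc1 (2.46) and Pdha1 (4.06) were past 1 upward. Ldhal6b (-1.51), Slc16a7 (-2.92), Mpc2 (-1.34) and Pdha2 (-1.79) were past 1 downward. Pdha1 and Pdha2 form a further pair of an X-linked gene and its testis retrogene, both encoding a subunit of pyruvate dehydrogenase. Of the regulators, Pfkfb2 (1.47) and Tigar (3.00) were past 1 upward and Fbp1 (-1.39) downward. At the common UMI limit Slc2a3 was at 0.42, Fbp1 at 0.06, Pkm at -0.48 and Pfkfb2 at -0.66, each of the opposite sign.

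For BA10 over B0, 11 of 33 were past 1 upward (18.8% of all genes) and 15 downward (39.5%). Upward were, among others, Slc2a5 (1.96), Slc2a3 (1.74), Ldhal6b (2.01) and Pdha2 (1.65). Downward were, among others, Hk2 (-4.55), Slc16a1 (-3.91), Pdha1 (-3.57) and Pgam1 (-3.42). For BA10 over A0, 2 of 26 were past 1 upward (15.2% of all genes), Ldhb (2.45) and Pgam1 (1.62). At the common UMI limit of BA10 over B0, Gpi1 (0.39), Bpgm (-0.06) and Slc16a7 (-0.43) had the opposite sign to that over all cells. The 6 past 1 downward for BA10 over A0 (20.2% of all genes) included Pfkfb3 (-2.44), Gpi1 (-2.15), Aldoart2 (-2.16) and Slc16a7 (-1.76).

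The genes most like each member were found by the Pearson correlation of log2(CPM + 1) over the 26 clusters, among 14370 genes. As points these clusters share libraries, depth and free RNA. Gapdhs was most like Oaz3 (r of 0.9971), Ldhc most like Cetn1 (0.9951), Pgam2 most like Atp8b3 (0.9944) and Gapdh most like Psme2 (0.9941). Aldoart1 was most like Fam83e (0.9908), with Aldoart2, another aldolase retrogene, at 0.9886. Pgk2 was most like Cystm1 (0.9894), Hk1 most like BC100451 (0.9849) with Akap4, a fibrous sheath protein gene, at 0.9833, and Ldha most like Dctn2 (0.9822). Eno4 (Pias2, 0.9764) and Pgk1 (Lamp2, 0.9635) had the lowest of these top values.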

How the data were processed

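Testis cells of 4 groups were measured with the 10x Genomics 3′ kit (version named in the labels), 1 library of pooled mice each. Reads were counted by the authors with Cell Ranger 2.2.0 on mm10, per the labels, and normalized with Seurat, per the study's methods. The number of cells that those methods state for the calling step does not match the numbers of cells in the libraries. The authors deposited natural log values, in which 1 was added to a gene's UMIs per 10000 UMIs of the cell before the log. Whole UMIs were recovered from them (100% of values whole within 0.001). Depth limits are given with the results, and interval bounds cover counting error only.

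UMIs were summed and scaled to 1000000. Clusters came from scanpy 1.11.5 and leidenalg 0.10.2 (2000 variable genes without the members and the pathway list, 30 components, 15 neighbours, resolution 1), with libraries merged without alignment. A cluster was named from marker genes unless markers of another class led it, under 3 markers were seen in 10% of its cells or, by a rule set after the clusters were seen, blood, stroma or steroid genes led one scored as germ cells. Doublets were kept. Scrublet called 8.06% (A0), 8.66% (A10), 0.0859% (B0) and 1.27% (BA10). Classes were compared where both libraries held at least 50 cells. Gene models came from GENCODE M21, with blastn 2.17.0 for the alignments. Scripts were tested on simulated data. Named genes were the 10 members, the pathway list and the 3 genes most like each member. The members and lists were chosen with earlier results of these data known. Alternatives were 10 CPM added, means over cells, cells at the common UMI limit, centring on the median gene, no filter on low values, no Scrublet calls, other cluster settings and, added after seeing the data, germ-scored clusters only.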

Additional observations from a re-analysis of the deposited data

Results flagged for a closer look

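For 7 members, AOS went with a lower level without busulfan (A10 over A0) and a higher level after it (BA10 over B0). The difference between both log2 ratios was 2.2337 for Pgam2, 1.957 for Ldhc, 1.8774 for Pgk2, 1.8684 for Ldha, 1.2738 for Gapdhs, 1.1333 for Hk1 and 0.8293 for Aldoart1. With 1 library in each group these differences were not tested. For Ldhc and Pgam2 the ratio without busulfan was within 0.02 of 0 and changed sign with the scaling, and for Hk1, Aldoart1 and Gapdhs the ratio after busulfan changed sign at the common UMI limit. For Ldha the ratio without busulfan was -0.0314, beside -0.028 for the median gene. At the common UMI limit its interval (-0.0125 to 0.0097) included 0. Germ-scored cells made up 9.87% of B0 and 80.9% of BA10, without the unnamed cluster led by haemoglobin and Sertoli genes (504 and 404 cells).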

How the results depend on the processing

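Every member ratio kept its sign without Scrublet calls, with 10 CPM added and in germ-scored clusters only. At the common UMI limit BA10 over B0 became -0.3394 for Hk1, -0.9932 for Aldoart1, -0.4487 for Gapdhs and -0.3004 for Eno4, B0 over A0 became 0.2201 for Eno4, and A10 over A0 became 0.0040 for Ldhc. Centred on the median gene, A10 over A0 became 0.0155 for Pgam2 and 0.0242 for Ldhc, and BA10 over A0 became -0.0721 for Pgam2 and -0.1566 for Ldhc. With means over cells, BA10 over A0 became 0.1687 for Pgk1 and A10 over A0 -0.0292 for Gapdh. The causes were not tested.

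The median of the testis forms for A10 over A0 was -0.0583 with means over cells, -0.0946 at the limit and -0.0481 centred. For B0 over A0 it was -2.0034 with 10 CPM added, -3.3440 with means over cells, -0.7491 at the limit, -2.7733 centred and -2.9396 in germ-scored clusters. For BA10 over B0 it was 1.2952, 2.6407, -0.0482, 1.8085 and 2.0651 in the same order. BA10 over A0 gave -0.9993 centred. The median of the somatic forms for A10 over A0 was -0.0663 with means over cells, -0.0014 at the limit and -0.0034 centred. For B0 over A0 it was 2.4301, 3.6861, 0.7750, 2.8732 and 1.5166 in the order above, and for BA10 over B0 -2.5082, -3.0173, -0.5429, -2.6921 and -2.1709. The somatic median of BA10 over A0 was 0.5504 at the limit, 0.2383 centred and 0.6151 in germ-scored clusters. Without the filter on low values, genes past 1 numbered 6 upward and 12 downward for A10 over A0 (3 and 4 with it), 6678 upward for B0 over A0 (4307), 6123 downward for BA10 over B0 (3835) and 1950 upward for BA10 over A0 (1151). Alternatives moved an isoform share beyond its counting interval in 82 cases and not in 224.

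No paired analysis was possible because each group is 1 library, and for the same reason no replicate was left out. Pools, cell preparations, depth and treatment cannot be told apart.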
